A study of Mus musculus with 2 samples.

Results

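The genes described here encode importins, exportins and nucleoporins, the proteins that carry cargo into and out of the nucleus and the proteins that build the pore through which it passes. Members were taken by gene symbol, as the Kpna, Kpnb, Ipo, Tnpo, Xpo and Nup genes with a number in the name together with Xpot, leaving out pseudogenes and antisense records. The rule found 44 of 55487 named genes, 23 for transport receptors and 21 for pore proteins. The rule itself used no measured value, but the members were chosen with earlier results of these data known. Levels come from LPC-HRas, a mouse liver tumour cell line labelled as hepatocellular carcinoma whose name carries HRas, infected with lentivirus that expressed a short hairpin RNA. The control library carried the hairpin shRFP, directed at red fluorescent protein, and the knockdown library the hairpin shETV4, directed at the ETS-family transcription factor gene Etv4. There was 1 library of each from 1 cell line and 1 hairpin, and both value columns carry the suffix _2, whose meaning the sources used here do not state. No difference has a replicate error and none could be tested; all values describe these 2 libraries.

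Values are TPM, in which the authors scaled each gene to its transcript length and each library to a common total, so levels of different genes can be compared, and sequencing depth is unknown. The difference of a gene is log2(TPM + 1) under shETV4 minus the same under shRFP. A gene was measured when it reached 1 TPM in either library. It was called lower or higher at a difference of -1 or 1, which is 2-fold on that scale. The added 1 makes differences smaller for genes at a few TPM. A fold printed beside the levels of a gene is the ratio of the TPM themselves, without the added 1. Etv4 was at 73.2 TPM under shRFP and 16.2 TPM under shETV4. Of the hepatocyte markers Alb, Apoa1, Ttr, Tat, Cyp2e1, Cps1, Fah and Hnf4a, 1 of 8 was measured (Fah, at 14.8 and 17.6 TPM), and Alb, Tat and Cyp2e1 were listed at 0 in both libraries, so the defining markers of hepatocytes were at or near 0 apart from Fah. Of 6 liver progenitor and biliary markers, Spp1, Sox9 and Krt19 were measured. None of 5 leukocyte and 3 endothelial markers reached 1 TPM, and 4 of 5 mesenchymal markers did, Acta2 at 1256 and 655 TPM, Col1a1 at 200.4 and 229 TPM, Col3a1 at 368 and 538 TPM and Pdgfrb at 59.5 and 77.2 TPM.

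Proteins too large to diffuse through the nuclear pore are carried by receptors of the karyopherin family, which bind the phenylalanine-glycine repeats that fill the pore's channel. Importins bind cargo in the cytoplasm and release it when they meet Ran bound to GTP in the nucleus, whereas exportins bind cargo and Ran-GTP together and release both outside. Importin alpha proteins are adaptors: they recognise the classical nuclear localisation signal and link it to importin beta. The pore itself is a stack of rings made of nucleoporins in many copies, and at mitosis it is taken apart while importins and Ran guide assembly of the spindle.

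Of the 44 genes, 40 were measured, and each of the 40 was at 10 TPM or more under shRFP. In the shETV4 library 8 of them were called lower, no member was called higher, and 35 had a difference below 0. Among all 12968 named genes measured, 7.06% were called lower, 3.39% were called higher and 7560 lay below 0. Among protein-coding genes at 10 TPM or more the share called lower was 5.90%. The median difference of the members was -0.62, beside -0.10 over all named genes measured. The receptors held 7 of the 8 genes called lower, among 22 measured, and their median was -0.84. Pore proteins held 1, Nup160, among 18 measured, with a median of -0.42. Summed over the members, receptor RNA went from 1800 TPM under shRFP to 1158 TPM under shETV4 and pore RNA from 1147 to 902 TPM. The ratio of the sums, which does not depend on how each library was scaled, was 1.57 under shRFP and 1.28 under shETV4. Less RNA per cell and a change in the make-up of the culture cannot be told apart in bulk RNA.

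The genes not measured were Kpna7, Nup210, Nup210l and Nup62cl. Kpna7, an importin alpha known from oocytes and early embryos, was listed at 0 in both libraries. Nup210, which encodes a membrane-anchored ring protein of the pore, was at 0.63 and 0.32 TPM, its relative Nup210l at 0.35 and 0.16 TPM, and Nup62cl at 0 and 0.03 TPM. All 4 are too low for a statement on direction.

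**Figure D1:**
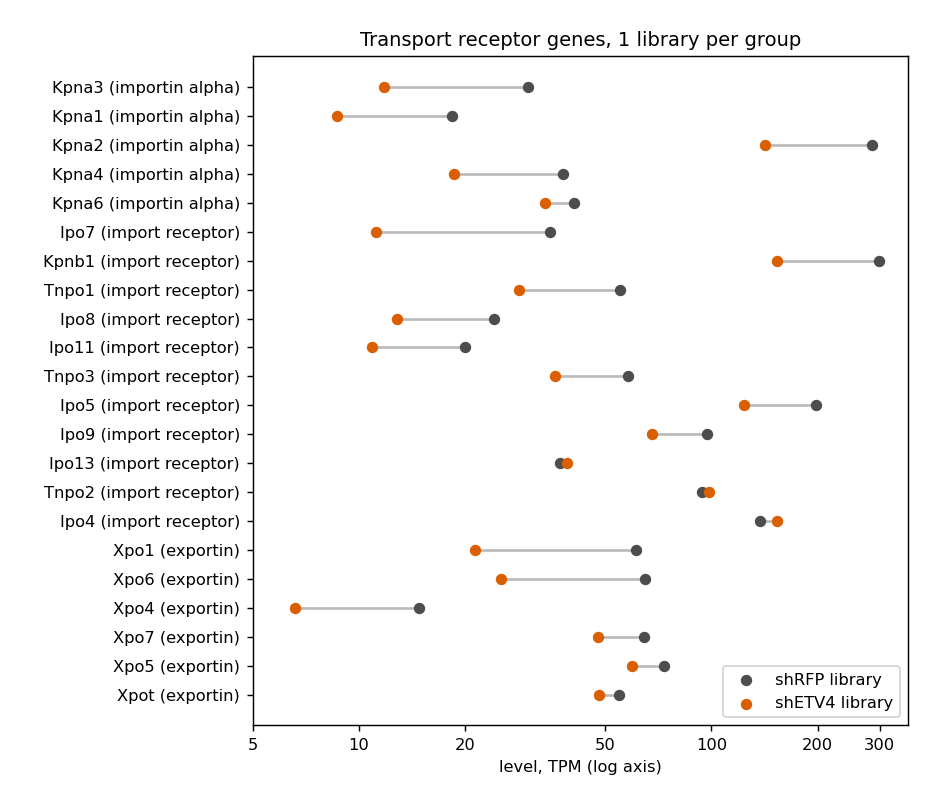
Levels of the 22 measured transport receptor genes in TPM on a log axis, with 1 grey point for the shRFP library and 1 orange point for the shETV4 library, joined by a line and grouped by role. The orange point is to the left for 19 genes; it is to the right for Ipo13, Tnpo2 and Ipo4.

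Of 5 measured importin alpha genes 3 were called lower, beside 7.06% of all genes. All 5 lay below 0, and their median difference was -1.01. After the GC adjustment described further on none was called. Kpna2, the form most tied to dividing cells, was by far the most abundant, at 285 TPM under shRFP and 142 TPM under shETV4, a difference of -1.01. Kpna3, which lies at chr14:61365211-61439874 on the minus strand of GRCm38, was at 30.2 and 11.8 TPM (difference -1.29), and its closest relative Kpna4 was at 37.9 and 18.6 TPM (difference -0.99, just inside the threshold). Kpna1 was at 18.4 and 8.65 TPM, a difference of -1.01. Kpna6, which belongs to the same subfamily as Kpna1, stood apart from the others at 40.7 and 33.7 TPM and a difference of -0.27. As deposited, the values thus separated Kpna6 from the other 4 genes, which all lay between -0.99 and -1.29. Kpna6 had a GC content of 49.6%, and the other 4 had 40.4% (Kpna3) to 45.3% (Kpna2). With GC content adjusted, Kpna6 was at -0.18, near Kpna4 at -0.27. Kpna1, Kpna3 and Kpna2 were then at -0.48, -0.51 and -0.61.

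Within the family the make-up changed little apart from Kpna6. Kpna2 supplied 69.2% of the importin alpha TPM under shRFP and 66.1% under shETV4, while the share of Kpna6 was 9.87% and 15.7%. Kpna3 supplied 7.32% and 5.49%, Kpna4 9.18% and 8.66%, and Kpna1 4.47% and 4.04%. These shares are free of the scaling of each library. Kpna2 has near-identical copies: Gm10184, whose sequence covers 95.8% of the longest Kpna2 transcript at up to 99.9% identity, was at 2.40 and 0.18 TPM, and its 4 processed pseudogenes found by sequence were at 0.15 TPM or less. The record Kpna2-ps, left out by the naming rule, was at 0.99 and 1.45 TPM. The sources used here do not say how reads were divided among these copies.

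Kpnb1 encodes importin beta, the partner of importin alpha and the receptor through which classical import runs. It had the highest level of any member under shRFP, 298 TPM, and was at 153 TPM under shETV4; the difference of -0.96 was inside 2-fold. The summed importin alpha level was 1.38 times that of Kpnb1 under shRFP and 1.40 times under shETV4, so the adaptors and their receptor stood in nearly the same ratio in both libraries. Cse1l encodes the exportin that returns importin alpha to the cytoplasm; its name falls outside the naming rule. It was at 80.8 and 29.6 TPM and was called lower, with a difference of -1.42. Relative to the summed importin alpha level, Cse1l was at 0.196 under shRFP and 0.138 under shETV4.

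The remaining import receptors bind their cargo without an adaptor. Ipo7, an importin of ribosomal proteins and histones (ENSMUSG00000066232, chr7:110018274-110056609, plus strand), had the lowest difference of all members. Its level was 34.8 TPM under shRFP and 11.2 TPM under shETV4, 3.11-fold lower, with a difference of -1.56 that only 1.38% of all measured genes lay below. Its relative Ipo8 was at 24.2 and 12.8 TPM (difference -0.86), so the ratio of Ipo7 to Ipo8 went from 1.44 to 0.871. Ipo5, another ribosomal protein importin, was at 198 and 124 TPM, a difference of -0.67. Ipo11 was at 19.97 and 10.9 TPM (difference -0.82) and Ipo9, an importin of histones, at 97.3 and 67.8 TPM (difference -0.51). None of these 4 passed 2-fold.

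The transportins Tnpo1 and Tnpo2 are close relatives that import RNA-binding proteins, and they differed from each other. Tnpo1 was at 55.0 TPM under shRFP and 28.5 TPM under shETV4, a difference of -0.92, whereas Tnpo2 was at 94.4 and 98.5 TPM, a difference of 0.06. The ratio of Tnpo1 to Tnpo2 was therefore 0.583 under shRFP and 0.289 under shETV4. Tnpo3, the importin of serine-arginine splicing factors, was at 57.9 and 35.9 TPM, with a difference of -0.67; 9.79% of its longest transcript is shared with Irf5, an interferon regulatory factor gene at 2.88 and 8.39 TPM.

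Ipo4, Ipo13 and Tnpo2 were the receptors above 0. Ipo4 was at 138 TPM under shRFP and 153 TPM under shETV4 (difference 0.15) and Ipo13, which works in both import and export, at 37.2 and 38.8 TPM (difference 0.06). The ratio of Ipo4 to Kpnb1 was 0.461 under shRFP, and under shETV4 both were at 153 TPM, the highest levels of any import receptor RNA there. Ipo4 carries a limit: 55.3% of its exon sequence overlaps exons of other genes. A protein-coding record that covers 60.1% of its transcript, Gm49378, was at 13.6 and 8.65 TPM.

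Among the 6 exportins all differences were below 0, and 3 genes were called lower, beside 7.06% of all genes. After the GC adjustment described further on Xpo6 alone was called, beside 2.31% of all genes called lower. Xpo1 was then at -0.70, Xpo4 at -0.47 and Xpot at 0.18. Xpo1, or CRM1, exports proteins with a leucine-rich nuclear export signal and many RNA-protein particles. It was at 61.0 TPM under shRFP and 21.3 TPM under shETV4, 2.86-fold lower, a difference of -1.47 (chr11:23256041-23298249, plus strand). Xpo6, the exportin of actin bound to profilin, was at 64.7 and 25.3 TPM, 2.56-fold lower, a difference of -1.32 (chr7:126101715-126200501, minus strand). Xpo4, at 14.9 and 6.59 TPM, was the least abundant measured member in both libraries and had a difference of -1.06.

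The exportins of small RNAs did not pass 2-fold. Xpo5, which exports microRNA precursors, was at 73.5 and 59.4 TPM (difference -0.30), and Xpot, the exportin of transfer RNA, at 54.7 and 48.0 TPM (difference -0.18). Xpo7 was at 64.5 and 47.8 TPM, a difference of -0.43. The make-up of the family shifted accordingly: Xpo1 supplied 18.3% of exportin TPM under shRFP and 10.2% under shETV4, and Xpo6 19.4% and 12.1%. The shares of Xpo5 and Xpot went from 22.0% to 28.5% and from 16.4% to 23.1%.

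**Figure D2:**
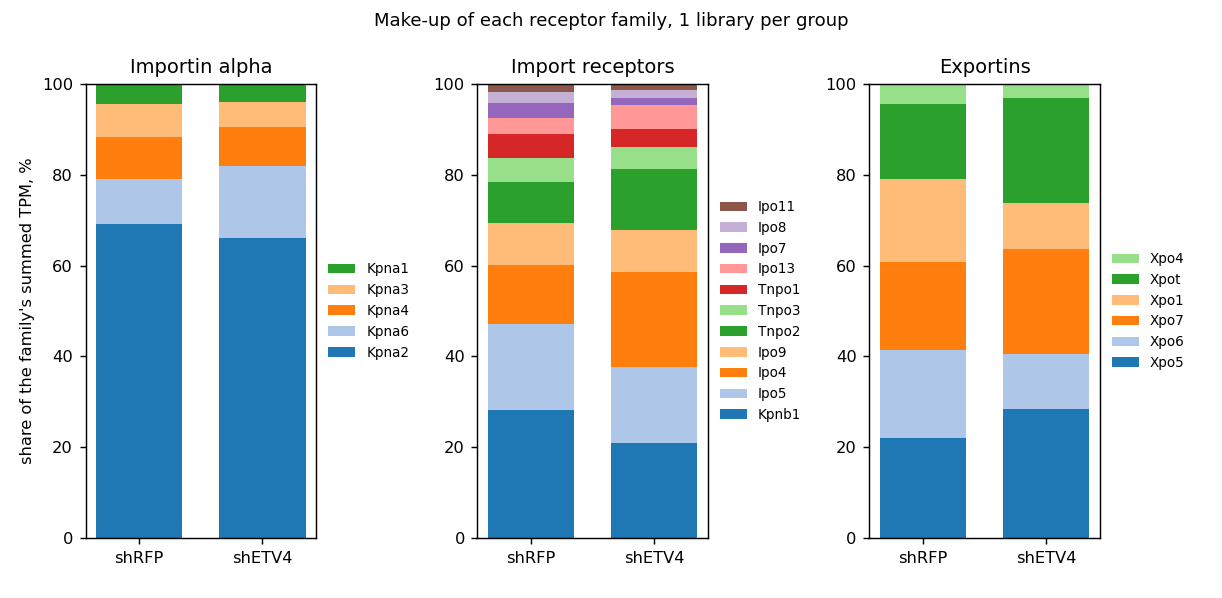
Share of each gene in the summed TPM of its receptor family, in percent, as 1 stacked bar per library for importin alpha, import receptors and exportins. Kpna2 keeps most of the importin alpha bar (69.2% and 66.1%), the Ipo4 share of import receptor RNA is 13.1% under shRFP and 20.9% under shETV4, and the Xpo1 share of exportin RNA is 18.3% and 10.2%.

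Nucleoporin genes were less far from 0 than the receptors. The outer ring of the pore is built from copies of a Y-shaped complex, and 7 members belong to it. As deposited all 7 lay below 0, and their median was -0.44. With GC content adjusted, 4 of the 7 lay below 0, the median was -0.12 and 0 were called. Nup160, an arm of the Y (ENSMUSG00000051329, chr2:90677215-90736328, plus strand), was at 41.9 TPM under shRFP and 16.3 TPM under shETV4. It was 2.58-fold lower, a difference of -1.31, and the 1 nucleoporin under the naming rule called lower. Nup133, which sits in the stem of the same complex, was at 44.4 and 40.5 TPM, a difference of -0.13. The partners Nup160 and Nup133 thus stood at a ratio of 0.943 under shRFP and 0.401 under shETV4.

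The other outer ring genes lay between these. Nup43 was at 45.8 and 28.9 TPM (difference -0.65), Nup107 at 74.8 and 51.6 TPM (difference -0.53) and Nup37 at 43.2 and 31.5 TPM (difference -0.44). Nup98, whose product is cleaved into the channel protein Nup98 and the Y-complex protein Nup96, was at 33.1 and 25.1 TPM, a difference of -0.38. Nup85, the most abundant of the nucleoporins under the naming rule in both libraries, was at 155 and 132 TPM, a difference of -0.23, and its share of the summed TPM of the 7 genes was 35.4% under shRFP and 40.5% under shETV4. Sec13 and Seh1l, Y-complex genes outside the naming rule, are not in that sum; Sec13 was at 239 and 213 TPM, above Nup85.

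In the inner ring, which lines the membrane between the outer rings, none of 5 genes passed 2-fold and the median was -0.59. With GC content adjusted the median was -0.07. Nup205 and Nup188 are large related scaffold proteins, and they differed from each other: Nup205 was at 81.7 and 53.8 TPM (difference -0.59), while Nup188 was at 83.1 and 85.2 TPM (difference 0.04). Nup155 was at 39.2 and 24.5 TPM and Nup35 at 58.8 and 37.0 TPM, with differences of -0.66 and -0.65. Nup93, which anchors the channel proteins to the ring, was at 121 and 110 TPM, a difference of -0.14.

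The channel proteins Nup62, Nup54 and Nup58 form a single complex rich in phenylalanine-glycine repeats. Nup62 was at 75.5 TPM under shRFP and 81.7 TPM under shETV4, a difference of 0.11 and the highest of the 18 nucleoporins measured under the naming rule. Nup54 was at 43.5 and 22.3 TPM, a difference of -0.94, the lowest of those 18 after Nup160. The ratio of Nup54 to Nup62 was therefore 0.576 in the first library and 0.272 in the other. The gene for Nup58 appears in the files under its older symbol Nupl1, at 0.04 and 0 TPM; 48.8% of its exonic bases lie in the protein-coding record Gm49336, which was at 43.2 and 24.1 TPM, a difference of -0.82, so the level of Nup58 cannot be read from its own record.

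On the faces of the pore, the cytoplasmic filament proteins Nup214 and Nup88 were at 41.4 and 85.8 TPM under shRFP and at 36.9 and 64.8 TPM under shETV4, with differences of -0.16 and -0.40. Of the nuclear basket genes, Nup153 was at 31.3 and 18.3 TPM (difference -0.74) and Nup50 at 46.9 and 40.8 TPM (difference -0.20). All 4 lay below 0 and inside 2-fold.

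**Figure D3:**
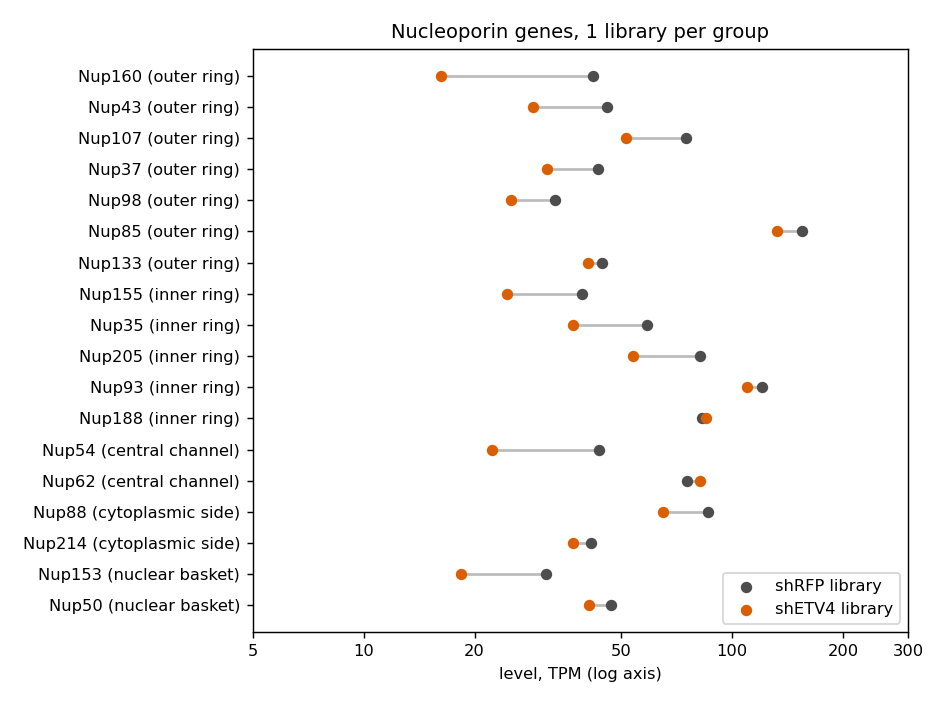
Levels of the 18 measured nucleoporin genes in TPM on a log axis, with 1 grey point for the shRFP library and 1 orange point for the shETV4 library, joined by a line and grouped by place in the pore. The widest gap is that of Nup160 (41.9 and 16.3 TPM); for Nup188 and Nup62 the orange point is to the right.

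Base composition moved with these differences. GC content here is the median over a gene's annotated transcripts, and the measured members had a median of 46.5% against 50.7% for all named genes measured. Across the 40 members differences and GC content had a Spearman rho of 0.72, and across all genes the rho was 0.52; genes of 1 pair of libraries are not independent replicates, and the correlations are descriptions. The 5 members above 0 had a GC content between 51.1% (Nup188) and 57.4% (Nup62). Of 14 members under 45% GC, 6 were called lower, and among all measured genes under 45% GC 23.0% were called lower. Of 26 members at 45% GC or more, 2 were called lower (Xpo6 and Kpna2), and among all such genes 3.33% were. Pairs of relatives followed the same order: Tnpo1, Kpna1, Ipo7 and Nup205 had a lower GC content than Tnpo2, Kpna6, Ipo8 and Nup188. The gene with the lower GC content also had the lower difference of each pair. The same held for Nup153 beside Nup50, which share a place in the nuclear basket. Among the exportins Xpo6 went against that order, with a higher GC content than Xpo5 (51.6% and 50.4%) and the lower difference.

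After subtraction of the median difference of genes of like GC content, 1 member was called lower, Xpo6, and none higher, while 2.31% of all genes were called lower. The adjusted median was -0.30 for receptors and -0.12 for pore proteins, and 35 of 40 members lay below 0 (21 of 22 receptors and 14 of 18 pore proteins). Among all genes so adjusted, 6485 of 12947 lay below 0. Of the 35 below 0 as deposited, 31 stayed there; Nup37, Nup98, Nup133 and Xpot came above 0, and Ipo4, Ipo13, Tnpo2 and Nup62 came below it. Xpo6, with a GC content of 51.6%, was at -1.32 before and after the adjustment, and at -1.40 when the longest coding transcript gave the GC content. The next lowest adjusted values were those of Nup54 (-0.87), Ipo7 (-0.78), Xpo1 (-0.70) and Kpnb1 (-0.68). The value of some members depended on which transcript gave the GC content: Tnpo1 was at -0.51 by the median transcript and at -0.17 by the longest coding one, Nup160 at -0.55 and -0.98, and Nup54 at -0.87 and -0.60. The part of base composition in the deposited differences was not tested.

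**Figure D4:**
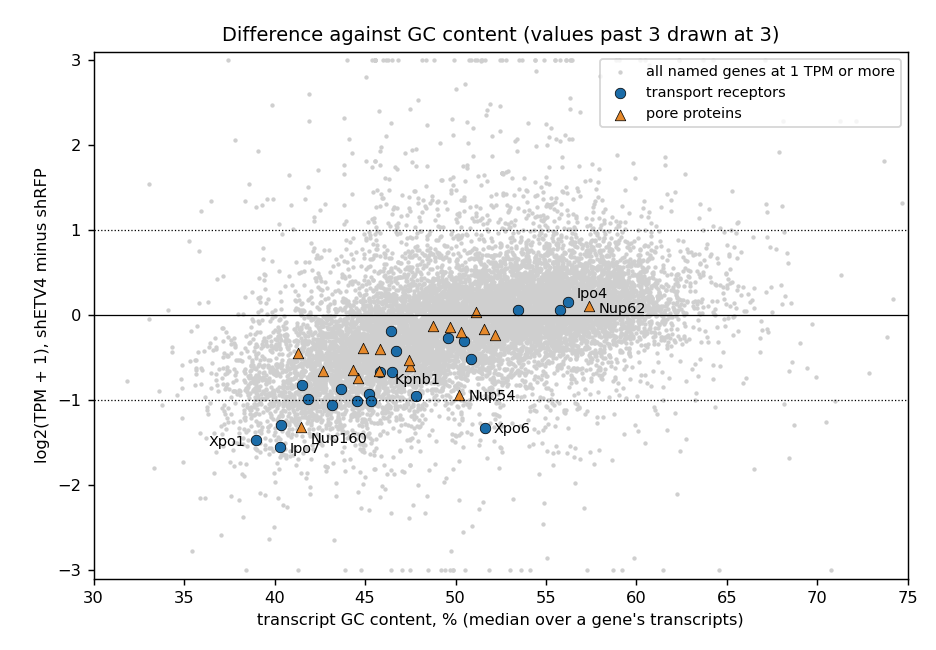
Difference of each measured gene (log2(TPM + 1), shETV4 minus shRFP) against transcript GC content in percent, with all named genes in grey, transport receptors as blue circles and pore proteins as orange triangles. Members with low GC content lie lowest, and Xpo6, at 51.6% GC and -1.32, lies apart from members of like composition.

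**Figure D5:**
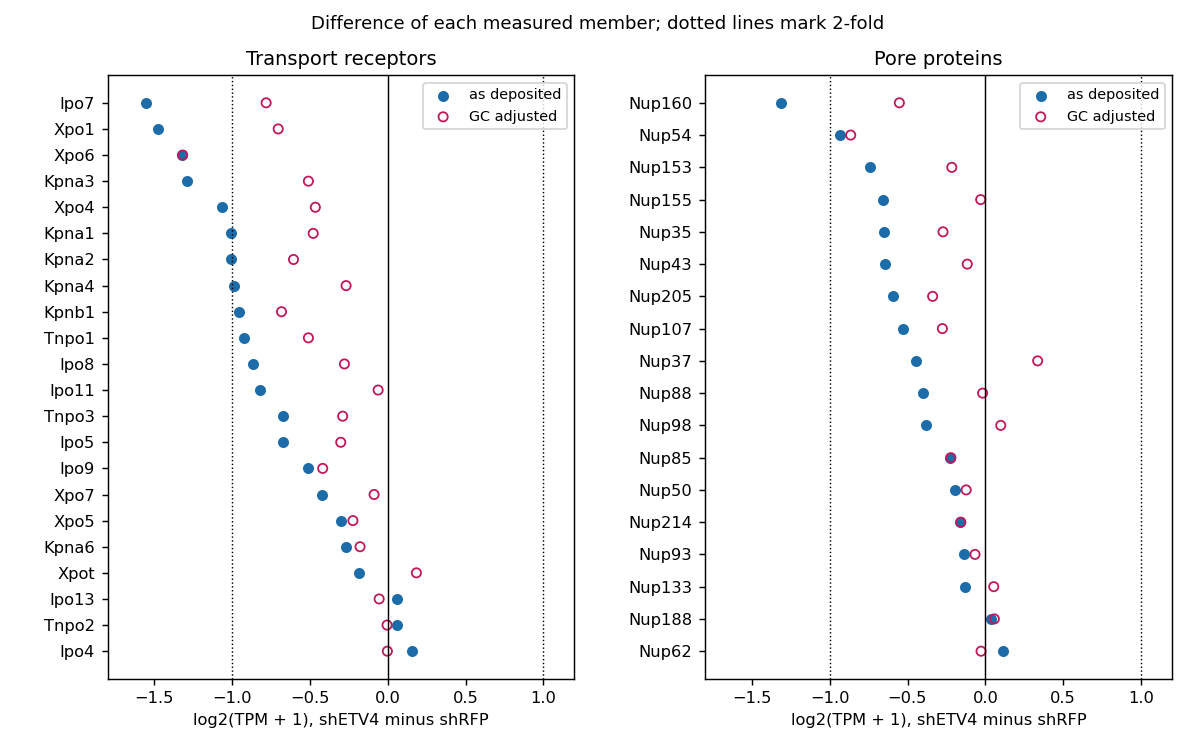
Difference of each measured member as deposited (filled blue) and after subtraction of the median of genes of like GC content (open red), in log2 units, for receptors and pore proteins; dotted lines mark 2-fold. As deposited 8 of 40 members lie past 2-fold, beside 7.06% of all genes called lower. After adjustment Xpo6 alone does, beside 2.31% of all genes.

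Promoter sequence was examined because Etv4 binds DNA through an ETS domain. The letters CCGGAA were taken here as the core of ETS sites, and any site without these letters was not counted. RefSeq windows on GRCm38.p6, from 250 bases before to 50 bases after each annotated start, were matched by symbol for 35 of the 44 members; Kpna1, Kpna3, Kpna6, Xpo4, Xpo7, Nup35, Nup43, Nup85 and Nup210l had no entry. On either strand the 6 letters occurred in 14.9% of all 32851 windows, in 33.0% of the measured protein-coding genes with a window, and in 10 of 32 measured members with one (31.2%). Those 10 were Ipo4, Ipo9, Ipo13, Tnpo3, Xpo6, Nup37, Nup54, Nup107, Nup155 and Nup214. Their median difference was -0.52, and that of the 22 without the letters was -0.63; 1 of the 10 was called lower, Xpo6, and 4 of the 22. A match describes letters and is not a measured binding site.

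The longer form CCGGAAGT, which contains the core, was present in 9.69% of the measured protein-coding genes and in Ipo4, Nup54, Nup155 and Tnpo3. Stretches of 30 bases around the core are shown for Xpo6, the 1 member with the core that was called lower, and for the 4 genes with the longer form, whose differences ran from -0.94 (Nup54) to 0.15 (Ipo4). Each is written 5′ to 3′ on the strand of the gene, with the core or its reverse complement in capitals. In Xpo6 the capitals begin 13 bases (chr7:126200497-126200526) and 203 bases (chr7:126200687-126200716) before the annotated start, in Ipo4 9 bases (chr14:55635676-55635705), in Nup155 8 bases (chr15:8109293-8109322), in Nup54 76 bases (chr5:92435258-92435287) and in Tnpo3 96 bases (chr6:29609928-29609957). A second match in Tnpo3 begins 2 bases into the transcript (chr6:29609830-29609859). Nup155 is on the plus strand and the others are on the minus strand.
Xpo6, near the start: gccctcacttgaTTCCGGattggtccggtt
Xpo6, further upstream: cggtgtcagggtCCGGAAagatgctcagaa
Ipo4: acgccctttccgCCGGAAgttgctgtcgga
Nup155: ggggaggacgaaCCGGAAgtgcgtcatgac
Nup54: acaaacacacccCCGGAAgtgatcggtggt
Tnpo3, before the start: cggcagggtcacTTCCGGgaggaggcgggg
Tnpo3, after the start: acggacggccacTTCCGGcccggggaagcc
Among these 5 genes the core lies close to the start in Xpo6, Nup155, Tnpo3 and Ipo4; among the other 5 with the core it does so in Nup107, Nup37 and Nup214, whose differences were -0.53, -0.44 and -0.16.

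Other promoter elements were counted in the same windows. CCAAT, the box bound by NF-Y, occurred in 18 of the 32 measured members and in 43.8% of measured protein-coding genes; the E-box CACGTG, bound by MYC and related factors, occurred in 7 members and in 11.99%. Median differences were -0.59 with and -0.56 without CCAAT, and -0.14 with and -0.66 without CACGTG. The members with CACGTG were Ipo4, Ipo7, Tnpo2, Xpot, Nup54, Nup93 and Nup188, which include both the lowest member, Ipo7, and 3 of the 5 members above 0. Those 3, Ipo4, Tnpo2 and Nup188, had a GC content of 56.2%, 53.4% and 51.1%. Members with and without an element were not matched for GC content. GCATGCGC, the core of sites for the respiratory factor NRF1, occurred in 4 members (Nup50, Nup62, Nup107 and Xpo5) and in 6.36% of measured protein-coding genes. Median differences were -0.25 with and -0.66 without GCATGCGC.

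Genes of nuclear transport outside the naming rule were read from 5 lists, chosen with earlier results of these data known. Of 56 measured records, 7 were called lower (12.5%, beside 7.06% of all genes) and none higher, with a median of -0.26; after GC adjustment 0 of the 56 were called lower. Among 11 measured pore genes, 3 were called lower (27.3%, beside 7.06% of all genes). Ranbp2, which encodes the large Ran-binding protein of the cytoplasmic filaments, was at 11.7 and 3.47 TPM, 3.37-fold lower. Tpr, the main filament protein of the nuclear basket, was at 62.9 and 22.2 TPM, 2.83-fold lower. Ahctf1, whose product ELYS seeds new pores on chromatin after mitosis, was at 31.9 and 12.8 TPM, 2.49-fold lower. The other 8 were within 2-fold, with differences between -0.57 (Ndc1) and -0.01 (Pom121), and the list's median was -0.17. With GC content adjusted none of the 3 passed 2-fold (-0.71, -0.93 and -0.76), though Tpr did, at -1.07, when the longest coding transcript gave the GC content.

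Components of the Ran cycle, which sets the direction of transport, stayed within 2-fold. Ran itself was at 691 TPM under shRFP and 533 TPM under shETV4 (difference -0.37), above every receptor and nucleoporin in both libraries. Its exchange factor gene Rcc1 was at 93.2 and 87.7 TPM and its GTPase-activating protein gene Rangap1 at 154 and 115 TPM, with differences of -0.09 and -0.43. None of the 6 genes was called, and their median was -0.32. Against Ran, Xpo1 was at a ratio of 0.0882 under shRFP and 0.0399 under shETV4. Of 5 measured receptors outside the naming rule, Cse1l and Ranbp6 were called lower (40%, beside 7.06% of all genes). Ranbp6 was at 2.11 and 0.42 TPM. With GC content adjusted, Cse1l was at -0.71 and Ranbp6 at -0.49.

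Messenger RNA leaves the nucleus by another route, through the receptor Nxf1 and the TREX complex rather than a karyopherin. Nxf1 was at 100.4 and 81.8 TPM, a difference of -0.29. Of 21 measured records on that list, 2 were called lower (9.52%, beside 7.06% of all genes), Thoc1 and Thoc2. Both encode subunits of the THO part of TREX. Its other listed genes were within 2-fold (Thoc3 0.08, Thoc5 -0.27, Thoc6 -0.24 and Thoc7 -0.55). Thoc1, which shares 24.3% of its exon sequence with other genes, was at 14.1 and 5.15 TPM, and Thoc2 was at 11.2 and 4.03 TPM. They had a GC content of 39.1% and 37.2% and adjusted differences of -0.53 and -0.48. In the nuclear lamina and membrane list none of 13 genes was called, and the median was -0.19; Lmnb1, which encodes lamin B1, was at 137 and 134 TPM.

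Importins and several nucleoporins also serve in mitosis, so genes of the G2/M phase were read in the same libraries. The list of 24 was chosen with earlier results of these data known, so its shares are not an independent comparison. Of the 24 genes 7 were called lower (29.2%, beside 7.06% of all genes) and none higher. Their median difference was -0.77, and 23 lay below 0, beside 7560 of all 12968 genes. The 7 called lower were Mki67, Top2a, Cenpf, Hmmr, Ttk, Kif11 and Bub1, with differences from -1.55 (Mki67) to -1.16 (Bub1). Cdk1, the kinase that starts mitosis, was nearer 0 than the list's median, at 409 and 376 TPM, a difference of -0.12. Their median GC content was 46.4%, close to that of the members. After GC adjustment their median was -0.36, with 2 of 24 called lower, beside 2.31% of all genes. The part of cell cycle state in the receptor and pore differences was not tested.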

How the data were processed

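RNA-seq gave 1 library for shRFP and 1 for shETV4, grouped by the label that names the hairpin. The authors deposited TPM values, a unit read from the column totals (999999.77 and 999870.3). HISAT2, RSEM and GRCm38.p4 are named in the submitters' processing notes without roles; no source used here gives the annotation release or strand setting. Depth is unknown, so no interval or floor is given.

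Both files held 55640 records; 153 unnamed loci, with 1.13% and 2.67% of the TPM, were left out. Differences used a pseudocount of 1. GENCODE M21 on GRCm38 gave coordinates, GC content and overlaps for 99.5% of named records. GC adjustment subtracted the median of 50 GC bins. Copies were sought with BLAST+ 2.17.0 (at least 100 bases at 95% identity). Python 3.11.15, numpy 2.4.6, pandas 2.3.3 and matplotlib 3.10.9 were used, and the procedure was tested on simulated data.

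Members and lists were chosen with earlier results of these data known. Motifs, pairs of genes and the 45% GC split were chosen after values were seen. Named genes are all members, genes of the 5 nuclear transport lists past 2-fold, Ran, Rcc1, Rangap1, Cse1l, Ranbp2, Tpr, Nxf1, Lmnb1 and Etv4; further names (such as Fah, Acta2, Sec13, Cdk1, Irf5, Ndc1, Pom121 and records sharing sequence with members) were chosen after values were seen.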

Additional observations from a re-analysis of the deposited data

How the results depend on the processing

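No paired analysis was possible because there was 1 library per group, and for the same reason no replicate could be left out. Over 8 alternatives, 423 values of 53 genes were followed (the 40 measured members, 12 other nuclear transport genes and Etv4). Of these values 383 kept their side of 2-fold, 39 came inside it, 1 came past it (Kpna4, pseudocount 0.1) and none reversed. The alternatives without a filter and with a filter of 5 TPM leave each gene's difference as it was, so their values keep their side by construction. Most of the 53 genes were inside 2-fold as deposited, so the 383 do not measure how firmly the calls held. The 39 all belong to genes called as deposited. Receptors called lower numbered 4 with pseudocount 5 and with the trimmed-mean scale, 14 at 1.5-fold, 0 at 3-fold and 1 under either GC adjustment. Thresholds are on the scale of log2(TPM + 1), where Ipo7, 3.11-fold lower in TPM, was at -1.56 and not past 3-fold. The members that came inside 2-fold were Kpna1, Kpna2 and Xpo4 with pseudocount 5 and with the trimmed mean, Kpna1 and Kpna2 with the median ratio set to 1, and Ipo7, Kpna1, Kpna2, Kpna3, Nup160, Xpo1 and Xpo4 under either GC adjustment. Pore genes called lower numbered 7 at 1.5-fold, 0 at 3-fold and 0 under either GC adjustment. No member was called higher under any of these settings. Over all genes, 676 were called higher and 1461 lower with pseudocount 0.1, 167 and 267 with pseudocount 5, 1121 and 2593 at 1.5-fold, and 162 and 162 at 3-fold. A filter of 5 TPM left 252 called higher, and protein-coding genes alone 250. GC adjustment gave 516 called higher and 299 lower, and 535 and 288 with GC content from the longest coding transcript, a setting added after the data were seen. As deposited there were 439 called higher and 916 lower; the trimmed-mean scale gave 533 and 666. The trimmed mean itself was -0.12, and relative to it the median was -0.73 for receptors and -0.30 for pore genes. Medians stayed below 0 throughout, between -0.89 and -0.30 for receptors and between -0.43 and -0.12 for pore genes. Apart from what fewer genes or another threshold bring by construction, the cause was not tested.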
